A study of Mus musculus with 2 samples.

Results

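The trophectoderm is the outer epithelium of the blastocyst, and 374 of the 1097 barcodes kept from a library of mouse embryos at embryonic day 4.5 belonged to it by a rule on marker genes. They were 34.1% of these barcodes (exact 95% Clopper-Pearson interval 31.3 to 37.0%) and 374 of the 6425 barcodes kept in the whole series. A barcode was kept with at least 1000 unique molecular identifiers (UMIs, each standing for 1 captured RNA molecule), at least 500 genes and at most 25% mitochondrial UMIs. The cells were selected on the UMIs of 16 genes: a barcode was assigned to the trophectoderm when its UMIs of Krt18, Tspan8, Dppa1 and Gata3 summed to at least 5 and to at least 2 times each of the sums that mark the other lineages. The epiblast sum used Nanog, Tdgf1, Sox2, Fgf4, Gdf3, Klf2 and Trh, and the primitive endoderm sum used Gata4, Gata6, Sox17, Pdgfra and Foxq1. The same rule gave 252 epiblast and 425 primitive endoderm barcodes and left 46 unassigned.

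The study compared the 3 lineages of whole B6C3F1 blastocysts with embryoids. The embryoids joined 10000 Lifeact-RFPruby embryonic stem (ES) cells with 50000 to 80000 XTE cells derived from Gata6-H2B:Venus ES cells, which had been kept in medium with CHIR99021, BMP4, Fgf4, Heparin and Activin. They grew for 48 h in AggreWell plates and for 48 h in repellent plates. Both samples were dissociated with TrypLE, and 6000 cells of each were loaded for a BD Rhapsody library. Each sample is a single library and the number of embryos is not given in the sources used here, so no difference below has a test over animals. Intervals cover counting error only, since cells of 1 library share their embryos, capture and sequencing.

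The trophectoderm forms at the surface of the early embryo, where cells polarise and seal to each other with tight junctions. It pumps ions and water inward to fill the blastocyst cavity, later attaches to the uterus, and founds the trophoblast of the placenta. Cdx2, Eomes, Elf5, Gata3 and Tfap2c are transcription factors known from this lineage, and Fgf4 from the epiblast maintains the trophoblast stem cells next to it. The epiblast gives rise to the embryo proper and the primitive endoderm to the yolk sac endoderm.

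The deposited tables held 1288 blastocyst and 5546 embryoid barcodes, with 11047555 and 28923930 UMIs. The filters removed 191 blastocyst barcodes, all of them over the mitochondrial limit and 143 of them also under the minimum of UMIs or genes. Of the 191, 35 met the trophectoderm sums (1 of them also under a minimum), 3 the epiblast sums and 2 the primitive endoderm sums. Among the kept barcodes the median mitochondrial share was 11.8% in trophectoderm, 9.65% in epiblast and 9.38% in primitive endoderm. The counts with all lineages limited to at most 10% are given below. The files had 9 barcodes in common, and 1 of the 374 trophectoderm barcodes was among them. Median depth was 8653 UMIs in trophectoderm, 9921 in epiblast and 9645 in primitive endoderm. Marker lists of other cells that a blastocyst sample could hold were near 0 in the trophectoderm, with summed levels of 0.83 CPM (UMIs of a gene or list per 1000000 UMIs) for leukocytes, 0 for red blood cells and 1.67 each for fibroblasts and for oocyte and cumulus cells. The uterine epithelium list summed to 203 CPM in trophectoderm, 113 in epiblast and 36.4 in primitive endoderm, carried by Lif and Wfdc2, and its part in the results was not tested.

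The 4 genes of the rule are a description of how the cells were chosen. Of the 374 cells, 337 had UMIs of all 4 genes, 33 of 3 genes, 2 of 2 genes and 2 of 1 gene. Krt18, an intermediate filament keratin of simple epithelia, was at 2162 CPM in trophectoderm, 5.29 in epiblast and 7.43 in primitive endoderm. Tspan8, a membrane tetraspanin, was at 1654 CPM in trophectoderm, 3.40 in epiblast and 3.22 in primitive endoderm. Dppa1, a developmental pluripotency associated gene, was at 1184, 1.89 and 1.49 CPM in the same order, and the transcription factor Gata3 at 697, 9.06 and 6.44 CPM. The summed UMIs of the 4 genes per cell had a minimum of 6, a median of 46 and a maximum of 236. The 10 cells with sums between 5 and 9 were shallow, at a median of 2192 UMIs, and 11 cells had another lineage's sum above 0.25 times their trophectoderm sum. Just outside the rule lay 8 barcodes that reached 5 UMIs but not the margin, with a median of 13153.5 UMIs, and 2 with sums of 3 or 4 that met the margin. Gata6, a gene of the primitive endoderm sum, was also present in the trophectoderm, at 260 CPM against 20.0 in epiblast and 711 in primitive endoderm.

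**Figure D1:**
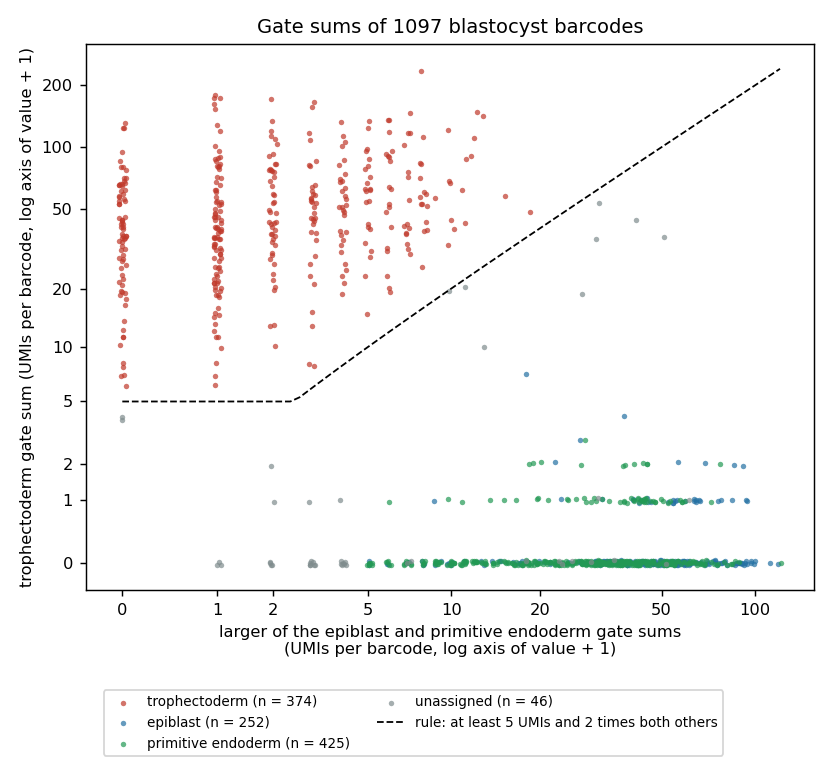
Each point is 1 of the 1097 kept blastocyst barcodes, with the larger of its epiblast and primitive endoderm sums on the x axis and its trophectoderm sum on the y axis, both in UMIs on log axes of the value + 1. The 374 trophectoderm barcodes lie above the dashed line of the rule, with sums of 6 to 236 UMIs, and the 46 unassigned barcodes lie mostly near the origin or along the line.

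Levels were compared as CPM of the UMIs summed over the cells of a lineage, and a log2 ratio is the trophectoderm level + 1 CPM over the other lineage's level + 1 CPM. A gene was compared when at least 1 of the 3 lineages reached 20 CPM, which 7608 genes did without the genes of the 3 sums. A gene that reached this level in 1 lineage alone was thus compared only because it was high there. At least 4-fold higher in trophectoderm than in both other lineages were 303 genes, or 3.98% of those compared, and at least 4-fold lower than in both were 314, or 4.13%. Scaling by the median of ratios, which moves the median gene from -0.30 to 0.03 over epiblast and from -0.38 to -0.02 over primitive endoderm, gave 388 higher and 249 lower genes. The 303 higher genes held 9.14% of all trophectoderm UMIs, 0.624% of epiblast UMIs and 0.787% of primitive endoderm UMIs.

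Promoter sequences are shown for the pair of genes with the highest ratios, BC051665 and BC053393, and for a neighbour of each. The neighbours are Ctsll3, which was also high in trophectoderm, and Dppa1, a gene of the rule by which the cells were chosen. BC051665 and Ctsll3 lie 11885 bases apart on chromosome 13, and BC053393 and Dppa1 lie 17777 bases apart on chromosome 11. Each window runs from 250 bases before the gene start to 50 bases after it, from RefSeq on build GRCm38.p6, written 5′ to 3′ on the strand of the gene. Capitals mark matches, on either strand, to TATAAA, the letters of the core promoter box of that name, to AGATAA, which the factors of the Gata family bind, or to GCCNNNGGC, which TFAP2 factors bind. The windows are chr13:60786315-60786614 (minus strand) for BC051665, chr13:60802795-60803094 (minus strand) for Ctsll3, chr11:46571263-46571562 (plus strand) for BC053393 and chr11:46629225-46629524 (minus strand) for Dppa1.
BC051665: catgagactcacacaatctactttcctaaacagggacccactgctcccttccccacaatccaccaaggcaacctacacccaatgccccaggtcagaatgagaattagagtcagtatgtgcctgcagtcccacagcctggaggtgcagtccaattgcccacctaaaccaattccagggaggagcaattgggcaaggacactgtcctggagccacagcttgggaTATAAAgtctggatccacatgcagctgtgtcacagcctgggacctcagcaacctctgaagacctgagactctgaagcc
Ctsll3: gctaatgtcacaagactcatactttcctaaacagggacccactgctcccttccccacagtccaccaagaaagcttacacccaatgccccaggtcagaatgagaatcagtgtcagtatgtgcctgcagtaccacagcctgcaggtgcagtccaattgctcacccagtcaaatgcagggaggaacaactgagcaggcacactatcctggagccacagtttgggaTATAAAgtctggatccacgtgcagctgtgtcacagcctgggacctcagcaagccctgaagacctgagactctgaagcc
BC053393: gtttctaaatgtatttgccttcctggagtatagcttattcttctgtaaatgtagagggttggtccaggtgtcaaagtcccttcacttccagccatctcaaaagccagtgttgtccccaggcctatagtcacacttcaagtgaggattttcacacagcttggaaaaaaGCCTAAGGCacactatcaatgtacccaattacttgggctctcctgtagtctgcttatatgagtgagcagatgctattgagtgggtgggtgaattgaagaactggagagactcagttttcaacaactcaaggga
Dppa1: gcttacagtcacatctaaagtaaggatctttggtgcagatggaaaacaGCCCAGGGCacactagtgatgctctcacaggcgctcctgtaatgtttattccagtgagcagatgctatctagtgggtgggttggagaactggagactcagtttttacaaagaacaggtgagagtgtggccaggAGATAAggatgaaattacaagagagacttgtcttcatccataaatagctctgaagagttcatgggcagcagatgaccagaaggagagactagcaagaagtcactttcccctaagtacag

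The promoters of BC051665 and Ctsll3 were identical at 265 of 292 aligned bases (90.8%), and in both a TATAAA began 28 bases before the start. The promoters of BC053393 and Dppa1 were identical at 128 of 166 aligned bases (77.1%). A GCCNNNGGC match began 83 bases before the start of BC053393 and 202 bases before that of Dppa1, and Dppa1 also had an AGATAA beginning 69 bases before its start. GCCNNNGGC reads the same on both strands, so each match counts on both. Over the 240 higher genes with a promoter in the table, 31.7% had a GCCNNNGGC, against 30.8% of the lower genes, 29.9% of all compared genes and 18.5% of all genes of the table. AGATAA was in 8.33% of the higher genes, 7.49% of the lower, 7.26% of those compared and 12.7% of the table. The TEAD letters GGAATG were in 16.2% of the higher genes, 16.3% of the lower, 14.0% of those compared and 16.6% of the table. For TATAAA the shares were 10.4%, 15.9%, 8.50% and 15.7%, in the same order. The ETS letters ACCGGAAGT were in 1.67%, 1.32%, 2.87% and 1.21%. For each of the 5 motifs the share of the higher genes was thus near that of all compared genes.

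BC051665 and BC053393 had the highest values of the smaller of the 2 ratios among all compared genes. BC053393 was at 2565 CPM in trophectoderm, 5.29 in epiblast and 11.9 in primitive endoderm, and BC051665 was at 949, 0.76 and 1.73 CPM. The log2 ratio of BC051665 was 9.08 over epiblast (95% interval 8.44 to 13.34) and 8.44 over primitive endoderm (8.05 to 10.41). The intervals are of the ratio without the added 1 CPM, whereas the ratios include it. The genes were spread differently over the cells, with UMIs of BC053393 in 95.8% of trophectoderm cells thinned to 4000 UMIs and of BC051665 in 40.1%. In thinned epiblast cells the share was 1.31% for BC053393, and for BC051665 it was 0 of 229 cells, which allows a share of up to 1.31%. The median depth before thinning was 9345.5 UMIs in these trophectoderm cells and 10403 in these epiblast cells. Ctsll3 was at 124 CPM in trophectoderm and had no UMI in the other lineages, which is at least 109-fold higher than epiblast and at least 167-fold higher than primitive endoderm against a floor of 3 UMIs per lineage. It had a UMI in only 3.59% of thinned trophectoderm cells, and 13 cells held 439 of its 445 UMIs. BC051665 and Ctsll3 share 121 stretches of 31 bases, 9.18% of the shorter transcript set, so some reads could count for either. BC053393 and Dppa1 share none.

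Neighbouring genes were often high together. The genes of the rule were left out here. The 303 genes that were 4-fold higher had 342 neighbours within 100000 bases among the placed genes, and 52 of these (15.2%) were also in the set, which holds 4.01% of the placed genes. The set formed 23 runs of adjacent compared genes, of which 3 held 3 genes. These were Gm12169, BC053393 and Gm4926 at chr11:46524251-46645006, Epn3, Mycbpap and Acsf2, and S100a14, S100a16 and S100a6. Ocln with Marveld2 was a run of 2. Related genes lie side by side in several of these runs, and reads shared between copies were not resolved beyond the pairs named above.

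Among the other genes with the highest ratios were enzymes, a transporter and a lectin. Adh1, an alcohol dehydrogenase that oxidises retinol, was at 1467 CPM in trophectoderm, 9.06 in epiblast and 4.46 in primitive endoderm. Entpd1, an ectoenzyme that breaks down extracellular ATP and ADP, was at 208 CPM in trophectoderm, 0 in epiblast and 0.25 in primitive endoderm. Both had at least 747 UMIs in trophectoderm and at most 24 in either other lineage. Slc15a2, a proton-coupled peptide transporter, was at 326 CPM in trophectoderm, 1.89 in epiblast and 1.49 in primitive endoderm. Lgals1, a galactoside-binding lectin, was at 3283 CPM in trophectoderm, against 36.6 in epiblast and 11.6 in primitive endoderm, and had a UMI in 99.4% of thinned trophectoderm cells. Gsta1, a glutathione transferase, was at 76.2 CPM and had no UMI elsewhere, but it shares 56.6% of its 31-base stretches with Gsta2, so its identity is uncertain.

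**Figure D2:**
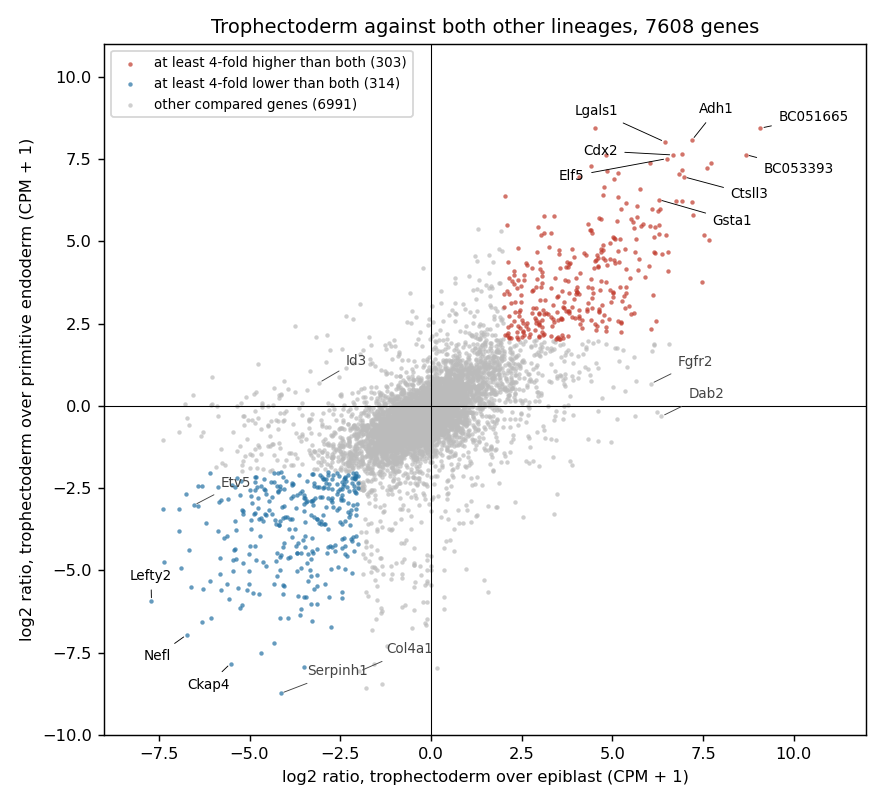
Each point is 1 of 7608 compared genes, placed by its log2 ratio of trophectoderm over epiblast (x axis) and over primitive endoderm (y axis), both of CPM + 1 without units. The 303 genes at least 4-fold higher than both are red and the 314 at least 4-fold lower than both are blue, and BC051665 and BC053393 lie at the far upper right.

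Transcription factors known from the trophectoderm were high as a group. On this list of 30 factors 20 were compared, and 14 lay 2-fold or more above epiblast and 1 lay 2-fold or more below, with a median log2 ratio of 1.94. Higher and lower are used below for this 2-fold distance, which 14.7% of all compared genes reached above epiblast and 23% below, with a median of -0.30. Against primitive endoderm 12 of the 20 were higher and 2 lower, with a median of 1.34, beside 11% higher and 21.2% lower and a median of -0.38 over all compared genes. Cdx2, the homeobox factor needed for trophectoderm maintenance, was at 294 CPM (277 to 313) in trophectoderm, 1.89 in epiblast and 0.50 in primitive endoderm. Elf5, an ETS factor of trophoblast stem cells, was at 227 CPM in trophectoderm, 1.51 in epiblast and 0.25 in primitive endoderm. Both were almost without UMIs outside the trophectoderm. Cebpa, a leucine zipper factor, was at 148 CPM in trophectoderm, 0.38 in epiblast and 0.99 in primitive endoderm.

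Other factors were less restricted. Eomes, a T-box factor, was at 466 CPM in trophectoderm, 20.8 in epiblast and 58.4 in primitive endoderm, and Gata2 was at 382, 10.6 and 2.23 CPM. Tfap2c was at 204 CPM in trophectoderm, 48.7 in epiblast and 1.49 in primitive endoderm, whereas its relative Tfap2a was at 393, 14.4 and 6.69 CPM. The epithelial ETS factor Elf3 was at 852 CPM in trophectoderm and 451 in primitive endoderm, against 56.6 in epiblast. Tead4, the TEAD factor that acts upstream of Cdx2, was nearly level, at 106 CPM in trophectoderm, 85.7 in epiblast and 107 in primitive endoderm. Klf5 was likewise within 2-fold, at 367, 220 and 450 CPM. Zfp36l1, an RNA-binding protein on the same list, was at 17.2 CPM in trophectoderm, 98.9 in epiblast and 104 in primitive endoderm. Hand1, Esx1, Ascl2 and Pparg, which are known from later trophoblast, were below 20 CPM in all 3 lineages.

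Markers of the stem or polar trophectoderm divided. Of 13 compared genes 9 were at least 2-fold higher than epiblast and 4 lower (median 2.90), and 7 were higher and 5 lower than primitive endoderm (median 1.14). Gsto1, a glutathione transferase of the omega class, was at 636 CPM in trophectoderm, 84.6 in epiblast and 103 in primitive endoderm. Cd9, a tetraspanin, was at 945, 312 and 410 CPM. Fgfr2, the receptor through which Fgf4 reaches this lineage, was at 317 CPM in trophectoderm and 199 in primitive endoderm, against 3.78 in epiblast. Esrrb, an orphan nuclear receptor, was lower, at 15.0 CPM in trophectoderm, 355 in epiblast and 143 in primitive endoderm. In the thinned cells the summed list had a median of 16 UMIs in trophectoderm, 10 in epiblast and 8.5 in primitive endoderm. Of 23 genes of differentiated trophoblast 7 were compared, of which 4 were higher and 2 lower than epiblast and 1 was higher and 3 were lower than primitive endoderm. Plac1, a placental gene of the X chromosome, was at 122 CPM in trophectoderm, 0.76 in epiblast and 32.4 in primitive endoderm.

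Most genes of the tight junction were higher in the trophectoderm. Of 19 compared genes of tight junctions and apical polarity 13 were higher than epiblast and none lower (median 2.10), and 10 were higher and 1 lower than primitive endoderm (median 1.27). Cldn4, a claudin of the tight junction strand, was at 959 CPM in trophectoderm, 41.2 in epiblast and 1.73 in primitive endoderm. Cldn7 was at 644, 25.7 and 33.2 CPM, and the junction adhesion molecule F11r at 326, 75.2 and 73.3 CPM. Cldn6 was not higher, at 67.3 CPM in trophectoderm, 80.4 in epiblast and 134 in primitive endoderm. Ocln, which encodes occludin, was at 93.5, 4.91 and 7.92 CPM. Per cell thinned to 4000 UMIs, the list summed to a median of 13 UMIs in trophectoderm, 2 in epiblast and 3 in primitive endoderm. At least 10 UMIs were found in 76.0% of trophectoderm cells, in 0 of the 229 thinned epiblast cells (which allows up to 1.31%) and in 0.57% of primitive endoderm cells.

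Desmosomal genes and keratins were higher as well. Of 7 compared desmosomal genes 4 were higher than each other lineage (medians 2.39 and 2.38), and 1 was lower than epiblast. Dsp, the desmoplakin that ties keratin to the junction, was at 174 CPM in trophectoderm, 5.66 in epiblast and 28.0 in primitive endoderm, and Perp at 223, 3.40 and 3.22 CPM. Dsg2, a desmosomal cadherin, was within 2-fold, at 165, 127 and 233 CPM. Outside the rule 3 of 8 listed keratins were compared and all 3 were higher than both lineages. These 3 reached 20 CPM in trophectoderm alone, so that count was largely set by the limit for comparing a gene. Krt8, the partner of Krt18, was at 262 CPM in trophectoderm, 0.76 in epiblast and 3.71 in primitive endoderm. Krt7 was at 54.3, 0 and 0.25 CPM and Krt19 at 69.8, 2.64 and 1.98 CPM. In the thinned trophectoderm cells, Krt8 had a UMI in 62.0%, Krt7 in 15.9% and Krt19 in 9.88%, against at most 1.44% for any of them in the other lineages.

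Genes of microvilli and cortical actin were also higher, at 8 of 15 compared against epiblast (median 1.31) and 9 of 15 against primitive endoderm (median 1.58), with 1 lower in each. Lcp1, the actin bundler plastin 2, was at 1242 CPM in trophectoderm, 32.9 in epiblast and 35.7 in primitive endoderm. Tpm1, a tropomyosin, was at 1204, 66.1 and 235 CPM, and the calponin Cnn2 at 506, 32.1 and 21.0 CPM. Lcp1 and Tpm1 had UMIs in 96.1% and 97.6% of thinned trophectoderm cells. In the list of adherens junction genes and integrins, 3 of 14 were higher and 2 lower than epiblast, and 4 were higher and 3 lower than primitive endoderm. Epcam, an epithelial adhesion molecule, was at 1785 CPM in trophectoderm, 521 in epiblast and 228 in primitive endoderm. Spp1, a secreted integrin ligand, was at 13.1 CPM, against 516 in epiblast and 126 in primitive endoderm. Gap junction genes did not follow the other junctions, with 2 of 5 higher and 3 lower than epiblast and 0 higher and 3 lower than primitive endoderm. Gja1, a connexin, was at 55.9 CPM in trophectoderm, 193 in epiblast and 235 in primitive endoderm.

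Genes of ion and water transport leaned higher in trophectoderm, with differences between members, while nutrient transporters went both ways. For ions and water, 5 of 14 compared genes were higher and 2 lower than epiblast (median 0.91, beside -0.30 for all compared genes). Against primitive endoderm 7 were higher and 3 lower (median 0.81, beside -0.38). Atp1b1, a beta subunit of the sodium pump, was at 465 CPM in trophectoderm, 198 in epiblast and 220 in primitive endoderm. The aquaporins parted, with Aqp3 at 311, 127 and 6.44 CPM and Aqp9 at 197, 6.04 and 0 CPM. Aqp8, in contrast, was at 1.95 CPM in trophectoderm, 2.27 in epiblast and 301 in primitive endoderm. Among 23 nutrient transporters 8 were higher and 9 lower than epiblast, and 8 were higher and 7 lower than primitive endoderm. Slc6a14, an amino acid transporter, was at 156 CPM in trophectoderm, 6.42 in epiblast and 0 in primitive endoderm, and the nucleoside transporter Slc28a3 at 222, 5.29 and 1.73 CPM. Slc1a5, a glutamine transporter, was at 15.0 CPM in trophectoderm, 156 in epiblast and 158 in primitive endoderm.

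Ectoenzymes showed the same division, with 5 of 11 higher and 5 lower than epiblast and 5 higher and 4 lower than primitive endoderm. Enpp1, which makes pyrophosphate from extracellular ATP, was at 203 CPM in trophectoderm, 0 in epiblast and 5.20 in primitive endoderm. Enpep, an aminopeptidase that cleaves angiotensin, was at 312, 0.76 and 21.8 CPM. Alpl, the tissue-nonspecific alkaline phosphatase, was at 419, 112 and 64.1 CPM. Of the surface proteases and inhibitors 6 of 14 were higher and 1 lower than epiblast, and 6 were higher and 3 lower than primitive endoderm. Tmprss2, a membrane serine protease, was at 181 CPM in trophectoderm, 1.51 in epiblast and 3.22 in primitive endoderm. Of the 15 members of the cystatin and stefin list 5 were compared, and BC051665 and BC053393 are 2 of them, although no source used here gives them that function. Csta, a stefin that inhibits cysteine proteases, was at 213 CPM in trophectoderm, 0.76 in epiblast and 0.50 in primitive endoderm, and Cstb at 4772, 753 and 945 CPM.

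Lysosomal genes were higher than epiblast in 9 of 25 cases and lower in none (median 0.59), but against primitive endoderm 4 were higher and 5 lower (median -0.33). Psap, the precursor of the saposins that activate lysosomal lipid hydrolases, was at 6570 CPM in trophectoderm, 253 in epiblast and 239 in primitive endoderm. Neu1, a lysosomal sialidase, was at 189, 14.4 and 44.8 CPM. Of 16 subunits of the vacuolar proton pump, 3 were higher and 0 lower than epiblast, and 1 was higher and 1 lower than primitive endoderm. Among them Atp6v0a4 stood out at 120 CPM, against 2.27 and 8.91 CPM. Among 15 endocytosis genes 5 were higher and 2 lower than epiblast, and 2 were higher and 4 lower than primitive endoderm. Dab2, an endocytic adaptor also used as a primitive endoderm marker, was at 1004 CPM in trophectoderm and 1255 in primitive endoderm, against 11.3 in epiblast. Lipid genes had 9 of 22 higher and 8 lower than epiblast, and 3 higher and 10 lower than primitive endoderm. Fabp3, a fatty acid binding protein, was at 1503 CPM in trophectoderm, 38.5 in epiblast and 259 in primitive endoderm.

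The signalling lists held genes that were higher and genes that were lower in trophectoderm. Of 18 compared FGF and ERK feedback genes 6 were higher and 5 lower than epiblast, and 5 were higher and 7 lower than primitive endoderm. Dusp6, an ERK phosphatase, was at 179 CPM in trophectoderm, 77.4 in epiblast and 6.69 in primitive endoderm. Spry2, an inhibitor of receptor tyrosine kinase signalling, was at 51.2 CPM in trophectoderm, 151 in epiblast and 145 in primitive endoderm, and its relative Spry4 at 1.11, 67.2 and 88.4 CPM. Etv4 had no UMI in trophectoderm, against 41.2 CPM in epiblast and 19.6 in primitive endoderm, which is at least 49.3-fold and at least 23.4-fold lower. In the BMP and TGF-beta list 1 of 15 was higher and 7 lower than epiblast, and 2 were higher and 8 lower than primitive endoderm. Id2, an inhibitor of helix-loop-helix factors, was at 1739 CPM in trophectoderm, 51.4 in epiblast and 50.0 in primitive endoderm. Its relative Id3 was at 54.8, 475 and 33.4 CPM, so the members of this family had different lineages at their highest level.

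In the Wnt pathway 4 of 17 compared genes were higher and 8 lower than epiblast, and 4 were higher and 8 lower than primitive endoderm. The same 4 genes were higher than both, namely Wnt3a, Wnt6 and Wnt7b, which encode ligands, and Wls, which carries ligands to the cell surface. Wnt7b was at 69.3 CPM in trophectoderm, 0 in epiblast and 1.73 in primitive endoderm, and Wnt6 at 59.3, 1.13 and 11.4 CPM. Wnt3a was at 29.8 CPM with no UMI in either other lineage, and Wls at 98.5, 1.51 and 8.91 CPM. Each of these 4 genes reached 20 CPM in trophectoderm alone, so they were compared only because they were high there. Sfrp1, a secreted Wnt inhibitor, was at 1.39 CPM in trophectoderm, 282 in epiblast and 71.6 in primitive endoderm. In the Hippo list 5 of 19 were higher and 2 lower than epiblast, and 2 were higher and 5 lower than primitive endoderm. Ctgf, a target of YAP, was at 2.78 CPM in trophectoderm, 185 in epiblast and 57.9 in primitive endoderm, whereas Tead3 was at 44.2, 4.53 and 11.4 CPM. Yap1 itself was within 2-fold, at 179, 272 and 268 CPM.

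The genes that were lowest against both lineages included Nefl, Upp1, Dse, Lefty2, Tcl1, Hspb1 and Ckap4. Nefl, the light neurofilament chain, was at 3.06 CPM in trophectoderm, 431 in epiblast and 505 in primitive endoderm. Lefty2, an inhibitor of Nodal signalling, was at 1.11, 439 and 129 CPM, and the small heat shock protein Hspb1 at 10.3, 877 and 533 CPM. Upp1, a uridine phosphorylase, was at 1.39 CPM in trophectoderm, 189 in epiblast and 225 in primitive endoderm. Each of these 7 genes had between 3 and 37 UMIs in all 374 trophectoderm cells. Pluripotency genes outside the epiblast sum were lower than epiblast in 14 of 23 cases and higher in none (median -2.51), and lower than primitive endoderm in 11 and higher in 2 (median -0.94). Dppa5a was not among the lower, at 2447 CPM in trophectoderm, 2328 in epiblast and 1428 in primitive endoderm, nor was Fbxo15, at 1009, 664 and 852 CPM. Of 21 primitive endoderm genes outside the sum, 20 were lower than primitive endoderm and 0 higher (median -6.55). Against epiblast, Dab2, Lrp2 and P4ha2 of this list were higher and 11 were lower.

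Cell cycle genes were lower in the trophectoderm. By the 2-fold count, S phase genes were lower mainly against epiblast, and mitotic genes against both lineages, more of them against primitive endoderm. Of 18 S phase genes 12 were lower than epiblast and 1 lower than primitive endoderm (medians -1.44 and -0.66), beside 23% and 21.2% of all compared genes, and none was higher. Of 19 mitotic genes 7 were lower than epiblast and 14 lower than primitive endoderm (medians -0.82 and -1.12), and none was higher. Top2a, a DNA topoisomerase of dividing cells, was at 149 CPM in trophectoderm, 471 in epiblast and 624 in primitive endoderm. Uhrf1, which recruits maintenance DNA methylation, was at 55.1, 320 and 108 CPM, whereas Rrm2, a ribonucleotide reductase subunit, was level at 442, 440 and 428 CPM. In thinned cells the S phase list had a median of 6 UMIs in trophectoderm, 17 in epiblast and 11 in primitive endoderm. The mitotic list had a median of 4 UMIs in trophectoderm, 13 in epiblast and 14 in primitive endoderm. No UMI of the list was found in 24.9% of trophectoderm cells, 3.06% of epiblast cells and 4.89% of primitive endoderm cells, while 35.3% of trophectoderm cells had at least 10. Mitotic genes were thus spread unevenly, with the middle of the trophectoderm cells lying between 1 and 13 UMIs (quartiles). Of 16 genes of G1 cyclins and inhibitors 9 were lower than epiblast and 6 lower than primitive endoderm, and 2 were higher than primitive endoderm.

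Genes of cytoplasmic ribosomal proteins and of the respiratory chain were close to level across the lineages. Ribosomal protein genes had none of 16 compared members 2-fold apart from either lineage, and the list of mitochondrially encoded genes none of 8. Outside that list, 2 mitochondrial ribosomal RNAs were higher than epiblast. Of these, mt-Rnr1 was at 8068 CPM in trophectoderm, 2919 in epiblast and 5901 in primitive endoderm, and mt-Rnr2 at 11314, 5352 and 8313 CPM. Nuclear respiratory chain subunits had 1 of 22 higher than epiblast and 3 higher than primitive endoderm (medians 0.38 and 0.65), none lower. In the oxidative stress list, 4 of 19 were higher and 6 lower than epiblast, and 6 were higher and 4 lower than primitive endoderm. The metallothionein Mt2 was at 10441 CPM in trophectoderm, 4448 in epiblast and 1095 in primitive endoderm, and the superoxide dismutase Sod1 at 111, 913 and 363 CPM. Immediate early genes were divided, with Jund at 674 CPM in trophectoderm, 181 in epiblast and 177 in primitive endoderm and Egr1 at 17.2, 102 and 125 CPM. In that list 2 of 10 were higher and 3 lower than epiblast, and 2 were higher and 2 lower than primitive endoderm. Of 5 compared VEGF and vasoactive genes 1 was higher than each other lineage, with 3 lower than epiblast and 2 lower than primitive endoderm. That gene was Ptges, a prostaglandin E synthase, at 135 CPM in trophectoderm, 17.4 in epiblast and 44.3 in primitive endoderm. All 5 compared genes of the steroid and retinoid list were lower than primitive endoderm, and 1 was higher and 1 lower than epiblast. Adh1, which was higher in trophectoderm than in both other lineages, is not on this list. Cyp26a1, which degrades retinoic acid, was at 7.51 CPM in trophectoderm, 0.38 in epiblast and 26.2 in primitive endoderm.

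**Figure D3:**
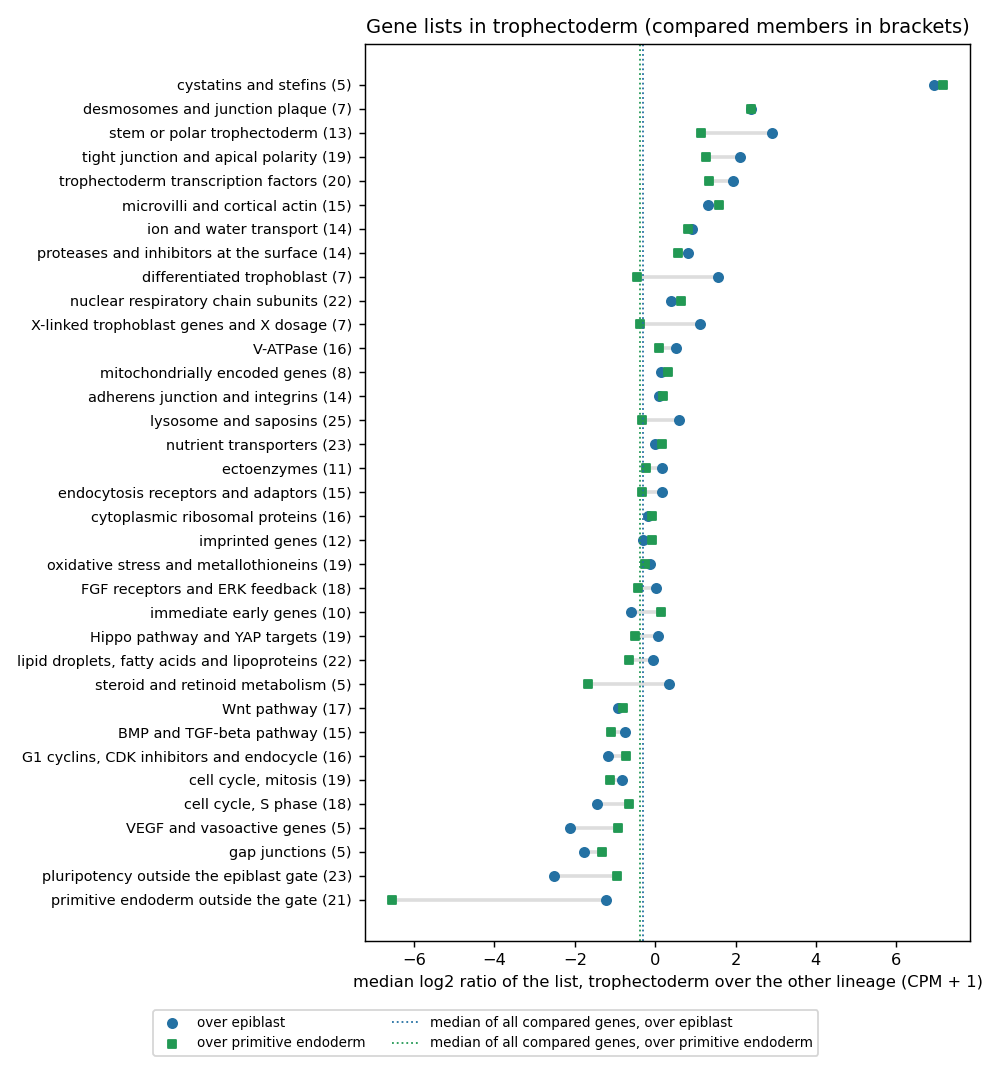
Each row is a gene list with at least 5 compared members (number in brackets), and the x axis gives the median log2 ratio (CPM + 1, no unit) of trophectoderm over epiblast (circles) and over primitive endoderm (squares), with the medians of all compared genes, -0.30 and -0.38, as dotted lines. Junction, trophectoderm factor and actin lists lie to the right of these lines for both lineages, and cell cycle, pluripotency and gap junction lists lie to the left.

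Among imprinted genes 3 of 12 compared were higher and 4 lower than epiblast, and 5 were higher and 4 lower than primitive endoderm. H19, a maternally expressed long noncoding RNA, was at 1564 CPM in trophectoderm, 7.55 in epiblast and 41.8 in primitive endoderm. Its neighbour Igf2, a growth factor, was at 214, 4.53 and 65.4 CPM. Meg3, another maternally expressed noncoding RNA, was at 2.50 CPM in trophectoderm, 52.9 in epiblast and 86.4 in primitive endoderm. Of 7 compared X-linked genes 4 were higher and 0 lower than epiblast, and 3 were higher and 1 lower than primitive endoderm. Xist, the RNA that coats the inactive X chromosome, was at 141 CPM in trophectoderm, 3.02 in epiblast and 184 in primitive endoderm, and it had a UMI in 30.2% of thinned trophectoderm cells. The labels give no sex of the embryos.

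Cells of the trophectoderm differed most from each other in H19. To compare cells at 1 depth each was thinned to 4000 UMIs, which left out 40 of the 374 trophectoderm cells, 23 epiblast cells and 77 primitive endoderm cells. Of 1393 genes with a thinned mean of at least 0.5 UMIs, 141 (10.1%) had a variance at least 2 times the mean, which is 1 for counting alone, and the median was 1.24. H19 had a variance of 33.3 times its mean, a UMI in 44.3% of the 334 thinned cells and at most 122 UMIs in a cell. The 34 cells with the most H19 UMIs held 64.7% of them, against a share of 3.49% of thinned epiblast cells with any. BC051665 had a variance of 16.3 times its mean and at most 61 UMIs in a cell, and its top 34 cells held 63.7% of its UMIs. Next came mt-Rnr1, Basp1, Malat1, Tinagl1, Adh1, mt-Rnr2, mt-Cytb and Psat1, each ranked by its variance relative to genes of like level. The mitochondrial RNAs among them are part of the mitochondrial share, so their correlation with it is not given. Across the 334 cells that share had a Spearman correlation of -0.14 with H19 and -0.01 with BC051665.

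The factors known from the lineage differed in spread. Cdx2 had a variance of 1.29 times its mean and UMIs in 65.3% of the cells, and Fgfr2 1.41 times with 67.4%. Elf5 had a variance of 1.63 times its mean and Gata2 of 1.82 times, and Eomes, at 2.72 times, was among the 141 genes. At these depths a cell without a UMI of Cdx2 is not shown to lack it, since the thinned mean was 1.26 UMIs.

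Some of the variable genes were related across cells, and the pairs given here were chosen after their values were seen. Across the 334 thinned cells, which share 1 library and 1 depth, the Spearman correlation of BC051665 with BC053393 was 0.65, and that of Adh1 with Gm2a, the GM2 activator, was 0.62. H19 ran opposite to these 4 genes, with -0.56 for BC053393, -0.55 for BC051665, -0.51 for Adh1 and -0.57 for Gm2a. Basp1 and Tinagl1 had weaker relations to H19 and Adh1. The values were -0.07 for H19 with Basp1, -0.19 for H19 with Tinagl1, -0.20 for Adh1 with Basp1 and -0.11 for Adh1 with Tinagl1. Not all other variable genes were as weakly related, with -0.49 for Adh1 with Psat1 and 0.45 for Adh1 with Alpl. H19 and Igf2 had a correlation of 0.41, and BC051665 and Tinagl1 had 0.45. H19 had almost none with Cdx2 (0.00), and a correlation of 0.30 with Top2a.

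**Figure D4:**
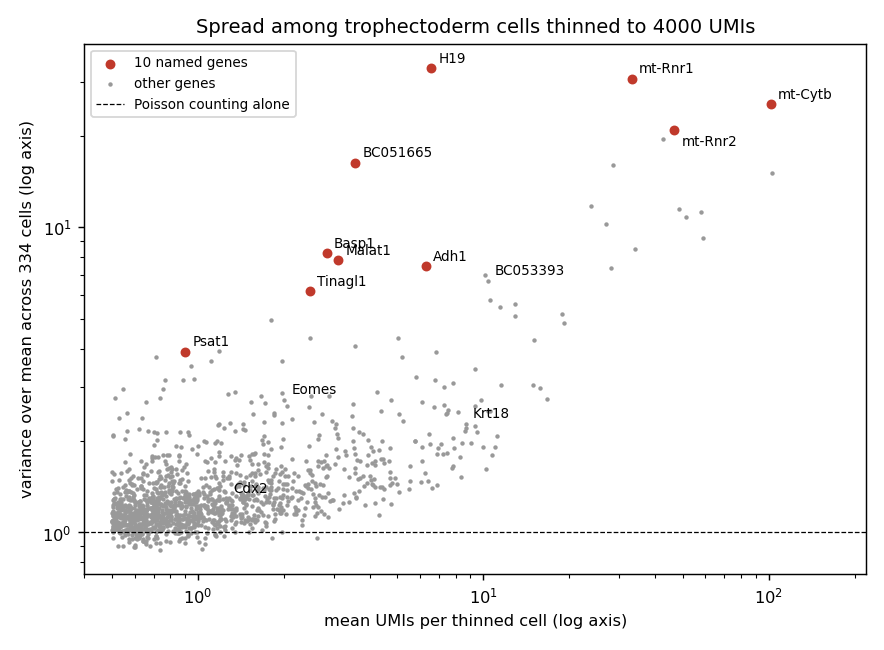
Each point is 1 of 1393 genes across 334 trophectoderm cells thinned to 4000 UMIs, with its mean UMIs per cell on the x axis and its variance over mean on the y axis, both log axes, and the dashed line at 1 marks Poisson counting alone. H19, at 33.3, and BC051665, at 16.3, stand highest above genes of like mean among the 10 named genes in red.

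The mitochondrial share itself divided the members, with 259 above 10% and 115 at or below it. Between these cells 188 of 6160 genes differed by at least 2-fold. The 303 higher genes had a median log2 ratio of 0.15 in the cells above 10% over those at or below it, against -0.08 for all genes. Restricting all lineages to at most 10% gave 298 higher genes, of which 260 were among the 303.

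The same rule applied to the embryoid library found 58 of 5328 kept barcodes (1.09%, exact interval 0.83 to 1.41%), and they did not carry the full set of markers. Krt18 held 94.6% of their rule UMIs and was the only gene of the 4 with a UMI in 42 of the 58. Tspan8 was found in 16 barcodes and Gata3 in 0 of 58, which allows up to 5.17%, and Dppa1 had no UMI in the whole embryoid table. They are therefore called barcodes that meet the rule. Their sum was 272929 UMIs, so 3 UMIs correspond to 10.99 CPM, and the library and the origin of the cells cannot be told apart in any of the values that follow. Of the 303 genes higher in blastocyst trophectoderm, 198 were at least 4-fold higher there than in the 58 barcodes, 51 were within 2-fold and 8 at least 2-fold higher in the embryoid barcodes. The median log2 ratio was 3.10, and 96 of the 303 had no UMI in the embryoid barcodes. The 303 were chosen for high levels in blastocyst trophectoderm, so ratios in this direction are largely set by that choice. No share over all genes is given beside them, and the counts say nothing particular about these genes.

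Of the 20 compared trophectoderm factors 13 were at least 2-fold higher in blastocyst trophectoderm than in the 58 embryoid barcodes, 6 were at least 2-fold higher in the embryoid barcodes and 1 was within 2-fold. Other lists had like counts higher in blastocyst trophectoderm, at 17 of 23 pluripotency genes and 14 of 22 nuclear respiratory chain subunits. It was 0 of 16 ribosomal protein genes and 0 of 21 primitive endoderm genes. With no share over all genes, the 13 of 20 is not shown to be particular to these factors. Cdx2 was at 294 CPM in blastocyst trophectoderm and at 22.0 in the 58 barcodes. Elf5 was at 227 CPM in blastocyst trophectoderm and had no UMI in the 58 barcodes, whereas Klf6, a zinc finger factor, was at 441 CPM in blastocyst trophectoderm and 949 in the 58 barcodes. Lgals1 was at 3283 CPM in blastocyst trophectoderm, against 150. The 3 compared keratins were divided. Krt7 was at 54.3 CPM in blastocyst trophectoderm and 3.66, from 1 UMI, in the 58 barcodes. Krt8 was at 262 CPM in blastocyst trophectoderm and 377 in the 58 barcodes, and Krt19 at 69.8 against 414. Tmprss2, a membrane-bound serine protease, was at 181 against 333. H19 was at 1564 CPM in blastocyst trophectoderm and 1096 in the embryoid barcodes. Set against the 3511 embryoid barcodes of the primitive endoderm rule, the 58 had 77 of 8043 compared genes 4-fold or more above them and 96 as far below. A gene without a UMI in the 58 entered as 0 CPM + 1, although 3 UMIs there are 10.99 CPM. Part of the 96 therefore lies within counting error. Twist1, for example, had no UMI in the 58 against 12.8 CPM, and its log2 interval reached up to 0.08, which includes no difference. Of those 3511 barcodes 81.2% also had Krt18 UMIs.

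**Figure D5:**
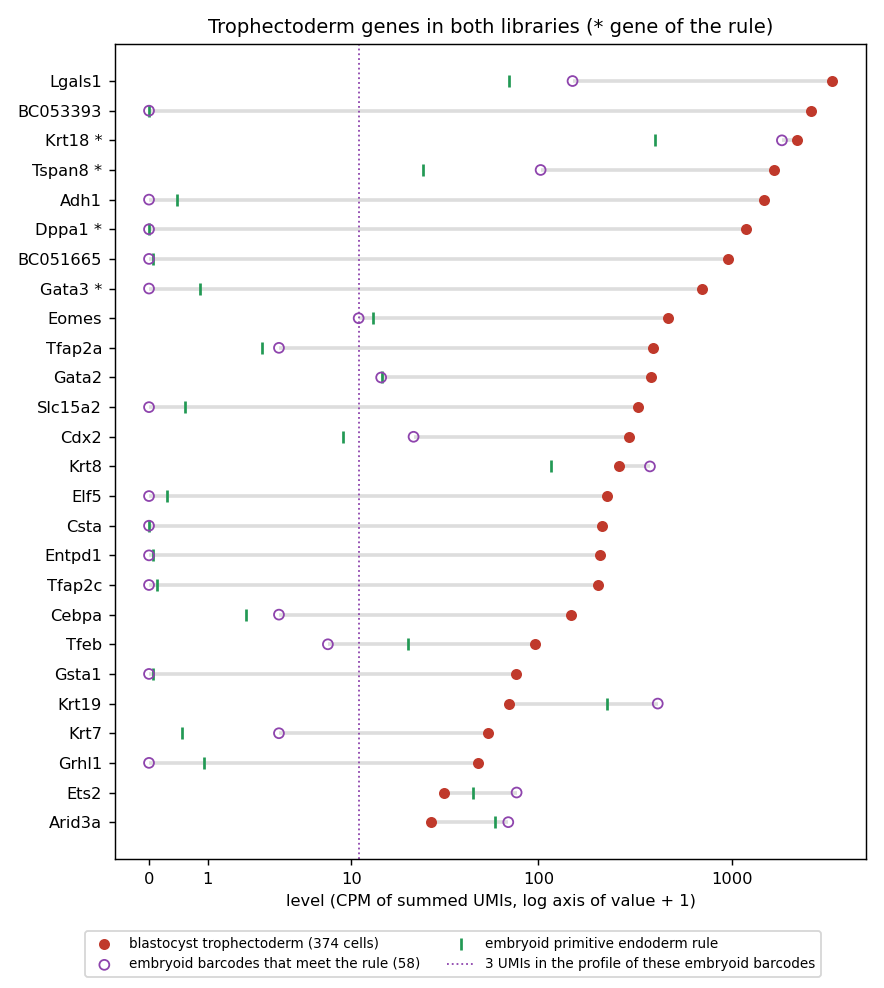
Rows are trophectoderm genes (asterisks mark genes of the rule) and the x axis is the level in CPM of summed UMIs on a log axis of the value + 1, for blastocyst trophectoderm (filled circles), the 58 embryoid barcodes that meet the rule (open circles) and embryoid barcodes of the primitive endoderm rule (ticks). Krt8, Krt19, Ets2 and Arid3a were higher in the 58 embryoid barcodes than in blastocyst trophectoderm, and most other genes lie at or left of the dotted line of 3 UMIs.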

How the data were processed

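Single-cell RNA was measured in 1 blastocyst and 1 embryoid library. The deposited tables hold whole-number UMI counts per gene and barcode, not normalized. Per the submitters' processing notes, the tools included STAR 2.7.1a, featureCounts 1.6.4, Subread, UMI-tools 1.0.1 and bcl2fastq 2.19.1.403, and the build was mm10. The sources used here give neither the annotation nor the rule for calling cells, nor how reads with several or antisense matches were counted. No value column was left out.

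The filters, the 3 sums and the margins are those given in the report. Counts were summed per class, divided by the class total and compared as log2 ratios with 1 CPM added, for genes with at least 20 CPM in a class. Intervals of a ratio are exact for 2 Poisson counts at 95% and are of the ratio without the added 1 CPM. A class at 0 UMIs was set to a floor of 3 UMIs only for folds given as "at least". In the log2 ratios and the 4-fold counts it entered as 0 CPM + 1. With 1 library per group no test was run. Thinning drew 4000 UMIs per cell without replacement. The scripts used scanpy 1.11.5, pandas 2.3.3, scipy 1.17.1 and numpy 2.4.6 under Python 3.11.15, with plots by matplotlib 3.10.9, and the scripts were tested on simulated data. Scrublet in scanpy called 17 blastocyst barcodes doublets (1 in the trophectoderm), which were kept in the values given and left out as an alternative; it called 0 in the embryoid library and had not worked there.

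The members and the 41 gene lists were chosen with earlier results of these data known. Genes named are the 12 with the largest smaller ratio, the 8 with the most negative larger ratio, up to 6 per list by level and ratio, all factors of the trophectoderm list, the 10 most variable genes and the genes of the rule. Ocln, Cldn6, Esrrb, Aqp8, Id3, Spry2, Gm4926, Gm2a and the genes of neighbouring runs fall outside this and were chosen after their values were seen. Some genes that the rule picks are not reported here. Promoters and gene positions came from RefSeq on GRCm38.p6, which is the mouse build of mm10, for 7560 of the compared genes, with 48 not placed.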

Additional observations from a re-analysis of the deposited data

How the results depend on the processing

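No setting reversed the direction of a named gene ratio or of a list median of at least 1 in size. Smaller list medians were not checked for a change of sign. The number of trophectoderm barcodes was 115 when at most 10% mitochondrial UMIs were allowed, against 374, and lay between 318 and 408 under the other rules tried, the highest being without a mitochondrial limit but with the UMI and gene minimums kept, an alternative added after seeing the data. The embryoid barcodes that meet the rule fell in number to 18 with a sum of at least 10 UMIs, to 24 with a margin of 4 times and to 0 without Krt18, against 58. Adding 10 CPM in place of 1 gave 186 genes at least 4-fold higher and 70 lower, against 303 and 314, and the same genes remained among them; this follows from the larger constant, which shrinks the ratios of low genes. Under the other alternatives the counts were 298 to 412 higher and 249 to 466 lower. Thinning to 2000 UMIs gave 52 variable genes of 623 against 141 of 1393, fewer genes reaching the minimum mean, and 8 of the 10 named genes were shared; at most 10% mitochondrial UMIs gave 175, with 4 of the 10 shared, in 99 cells. Of the named gene ratios 47 moved further than their counting error and 513 did not, and of the list medians 33 moved by over 1.5-fold and 975 did not. Leaving out the 13 cells with at least 3 Ctsll3 UMIs, also added after seeing the data, gave 301 higher and 312 lower genes. No replicate could be left out, and no paired analysis was possible because each group has 1 library. Depth limits genes under 20 CPM in every lineage and any statement on a gene's absence in a single cell.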

Other observations

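Ctsll3 was concentrated in few trophectoderm cells. It had UMIs in 18 of the 374 cells, and 13 cells with at least 3 held 439 of its 445 UMIs, with 101 in the highest cell. No epiblast or primitive endoderm cell had a UMI. These 13 cells were chosen after their values were seen, so what follows describes them and has no test. They had a median of 13576 UMIs and 9.60% mitochondrial UMIs, against 8577 UMIs and 11.8% in the other 361 cells. All 13 had BC051665, at 6986 CPM, against 655 CPM in the others, where 160 of 361 cells had it. BC051665 and Ctsll3 share 121 stretches of 31 bases, so part of this level could come from reads of Ctsll3, which was not tested. The counts of cells were not taken at 1 depth. Basp1 was at 5051 CPM against 612, and Krt19 at 791 against 34.7. Phlda2, an imprinted gene that limits placental growth, was at 635 CPM against 16.6, with UMIs in 8 of the 13 cells. Slc2a1, a glucose transporter, was at 1019 CPM against 111, and Plac1 at 659 against 96.3. Single cells weigh heavily in these sums: the 3 highest cells held 56.2% of the Ctsll3 UMIs.

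Other genes were low in the 13 cells. Gata6, a gene of the primitive endoderm sum that the rule limits in all members, had no UMI in them. In the other 361 cells Gata6 was at 272 CPM, which is at least 15.1-fold higher. H19 was at 17.98 CPM, from 3 UMIs, against 1640 CPM, and Cdx2 at 65.9 against 305 CPM. Alpl was at 5.99 CPM against 439. Eomes was not lower, at 881 CPM against 446, nor were Elf5, at 395 against 219, and Tfap2c, at 449 against 192. Whether these cells come from 1 embryo or from several was not tested, since the barcodes carry no embryo label.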
